A study of Drosophila melanogaster with 4 samples.

Results

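The neighbouring POU genes nub (nubbin, also called Pdm1) and pdm2 lie on chromosome arm 2L of Drosophila melanogaster. The deposited list of TCF binding peaks was read here over a window of 120 kb named for this gene pair, from 12580000 to 12700000 on FlyBase release 5. A peak was a member when its midpoint lay in this window. By this rule 7 of the 4589 deposited peaks were members, out of 967 peaks on 2L and 4544 on the 6 arms X, 2L, 2R, 3L, 3R and 4.

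The study mapped TCF, the protein of the gene pangolin, by ChIP-seq in whole embryos labelled 0 to 8 h. The ChIP group had 2 libraries, made with a crude rabbit polyclonal antibody against the N-terminus of TCF, and the input group had 2 libraries of chromatin DNA without that antibody. Both groups came from the same strain, Y cn bw sp. Its listed genotype holds y[1] and oc[R3.2] in the first block. The second block holds Gr22b[1], Gr22d[1] and cn[1], with CG33964[R4.2], bw[1] and sp[1]. The last block holds LysC[1] and lab[R4.2], with MstProx[1], GstD5[1] and Rh6[1]. ChIP and input thus carried every allele alike, the sex was labelled unknown, and the collection text also describes a later egg-laying window than the stage label. The deposited list is 1 set for all 4 libraries, so no value below has a replicate error, library depth is unknown, and ChIP and input could not be compared.

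TCF carries the Wingless (Wnt) signal to the DNA. Without the signal it can hold target genes off together with the corepressor Groucho, and with the signal the beta-catenin Armadillo joins it and target genes are switched on. nub and pdm2 encode closely related POU-homeodomain transcription factors that arose by duplication and act partly in the same cells. In the embryonic nerve cord both follow Krüppel and precede castor in the series of factors that gives neuroblasts their temporal identity. nub is also known for its role in the growth of the wing. In whole embryos, strong binding in few cells and weak binding in many cells cannot be told apart.

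The only gene annotation used was a RefSeq table on release 6, for names and gene order alone. Both members were found in it by symbol, nub as Dmel_CG34395 and pdm2 as Dmel_CG12287, and both lie on 2L. By start position, 1 protein-coding gene stands between them. It is Ref2, which encodes an RNA-export factor of the REF family and whose span overlaps that of nub. Nepl7, a neprilysin-like gene, overlaps the span of pdm2. The next gene after it is CCT4, a subunit of the chaperonin that folds actin and tubulin. The peaks are on release 5 and coordinates were not converted, so no peak is assigned to nub or to pdm2, or to an exon, an intron or a promoter of either gene.

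TCF occupancy in the nub and pdm2 window consisted of 1 strong peak, 1 peak of intermediate height close to it and 5 weaker peaks. The 7 peaks covered 3861 bp of the window. Along 2L they formed a set of 4 peaks, then a stretch of 39.5 kb without a peak, and then 3 more widely spaced peaks. The strong peak stood first in this order, and the intermediate peak closed the set of 4. From the start of the first to the end of the last peak the members spanned 67.3 kb.

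**Figure D1:**
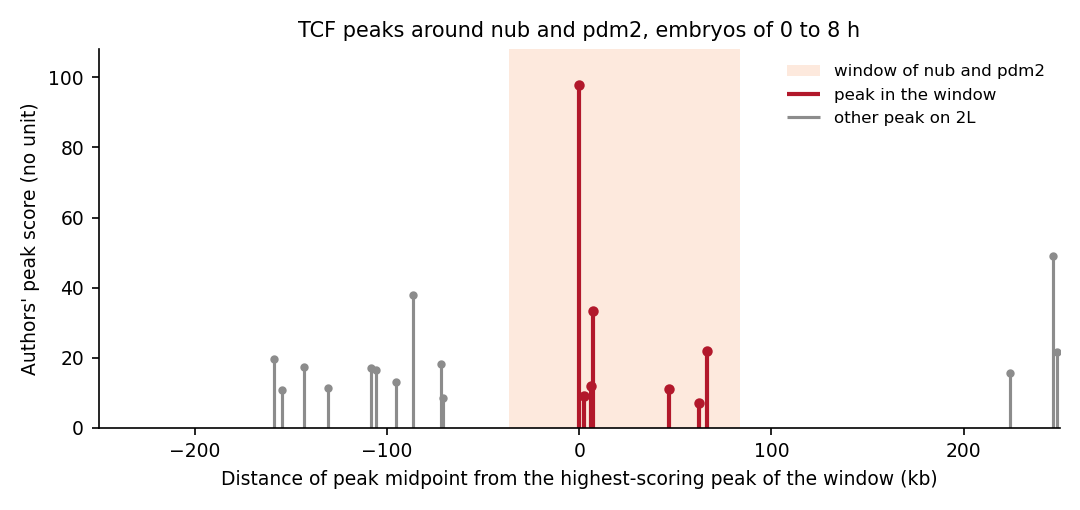
Authors' peak score (vertical axis, no unit) of each TCF peak on 2L against the distance of its midpoint from the highest-scoring peak of the nub and pdm2 window (kb), with the window shaded, its 7 peaks in red and other peaks in grey. The strong peak with a score of 97.66 lies 7.00 kb by midpoint from a peak with 33.38, with weak peaks between them. The remaining 5 members have scores from 7.14 to 21.85.

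Each peak carries 1 score that the authors deposited without a name or a scale. The scores fall on steps that can be read as Poisson p-values on the -log10 scale, 1 step for each added fragment in the pileup, the number of fragments that overlap at a place. Over the whole list, 94.7% of scores lay within 0.01 of such a step when 71.7 fragments were expected. Among the expected numbers tried that were more than 1% higher or lower, at most 33.6% of scores did so. Those numbers were spaced more coarsely than in the search that gave 71.7, so the contrast between these shares can be too large. Of the 7 members, 6 matched, and for these an implied pileup and its fold over the expected value are given below. The pileup is known to within 1. The 95% exact Poisson intervals cover counting error only, the pileup is the maximum that the caller scored, and 1 expected value serves for every place, whatever the local input.

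The strongest member lay at 12615833 to 12616812 and was 980 bp wide, the widest of the 7. Its score of 97.66 ranked 361 among the 4544 arm peaks and 88 on 2L. Its implied pileup was 313, or 4.36-fold over the fitted expectation (3.89 to 4.87). Thus 92.0% of all arm peaks had a lower score, and 79.2% were narrower. Of 329 arm peaks within 100 bp of its width, 49 had a higher score.

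The second in score lay at 12623009 to 12623645, with its midpoint 7.00 kb from that of the strongest. It was 637 bp wide, with a score of 33.38, an implied pileup of 196 and a fold of 2.73 (2.36 to 3.14). Its rank was 1115 of 4544. The counting intervals of these 2 strongest peaks do not overlap each other, and neither overlaps that of any of the 4 remaining members with a fold.

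Between them lay 2 weak peaks. The one at 12618659 to 12619052 was 394 bp wide and had a score of 9.11, an implied pileup of 128 and a fold of 1.78 (1.49 to 2.12). The one at 12622061 to 12622526 was 466 bp wide and had a score of 11.88, an implied pileup of 138 and a fold of 1.92 (1.62 to 2.27). They ranked 3974 and 3090 among the arm peaks, and their intervals overlap. The gaps between the first 4 peaks were 1846, 3008 and 482 bp, in order along the arm.

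The 3 members beyond the long gap had lower scores than the strongest pair of the first 4 peaks. Of their scores, 7.14 lay below those of the weak pair (9.11 and 11.88), 11.02 between them and 21.85 above both. The peak at 12663134 to 12663440 was 307 bp wide, with a score of 11.02, an implied pileup of 135 and a fold of 1.88 (1.58 to 2.23). The next peak, at 12678496 to 12678696, had the lowest score of the window, 7.14, with an implied pileup of 120 and a fold of 1.67 (1.39 to 2.00). It was 201 bp wide, which is the smallest width among the arm peaks and is shared by 95 of them, and 32 arm peaks had a lower score. These 2 weak peaks lay 15.1 kb apart, and their counting intervals overlap.

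The last member, at 12682272 to 12683147, was the highest of these 3, with a score of 21.85. It was 876 bp wide, the second widest of the window, and ranked 1676 among the arm peaks. Its score matched no Poisson tail at the fitted expectation, so no pileup or fold is given. Of 395 arm peaks within 100 bp of its width, 269 had a higher score. The same count was 1044 of 1223 for the peak at 12618659 and 1015 of 1064 for the peak with the lowest score. Both were lower for their width than the last member. Since no arm peak was narrower than the peak with the lowest score, it was set only beside equally wide or wider peaks. For the weak peak at 12622061 the count was 696 of 1022, a share close to that of the last member. The weak peak at 12663134, with 760 of 1649, and the peak at 12623009, with 163 of 677, were higher for their width than the last member. The rule used neither score nor width.

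**Figure D2:**
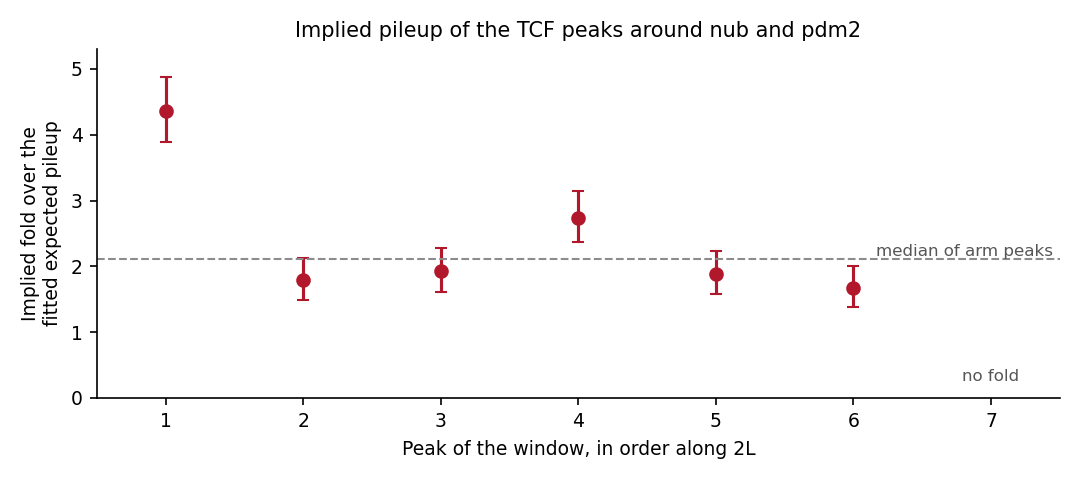
Implied fold of the pileup over the fitted expected pileup (vertical axis) for the 7 peaks of the nub and pdm2 window in order along 2L, with 95% exact Poisson intervals as bars and the median of the arm peaks that have a fold, 2.11, as a dashed line. The first and the fourth peak, at 4.36 and 2.73, lie above the line with their whole intervals, the last peak has no fold, and the other 4 folds lie between 1.67 and 1.92.

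The members ran from near the lower end of the scores on the arms to the upper 10%. Their median score was 11.9 (range 7.14 to 97.7), against 16.3 (interquartile range 11.3 to 35.2) for the other 960 peaks on 2L and 15.9 (11.0 to 32.9) for the other 4537 arm peaks. Of the 7 members, 4 were below the median score of all arm peaks. Their median width was 466 bp (201 to 980 bp), against 530 bp on the rest of 2L and 503 bp on the rest of the arms. The median implied fold was 1.90 over the 6 members with a fold, against 2.11 over the 4298 other arm peaks with one.

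A score at or above the upper quartile of the arm peaks, 32.9, was found in 2 of the 7 members (28.6%), against a background of 25.3% of the 4544 arm peaks. The member with 33.38 lies just inside this limit, and the next member below it has 21.85. An implied fold of at least 3 was found in 1 of the 6 members with a fold, against a background of 19.4% of the 4304 arm peaks with one. Both shares are near their background. No test was run, since the list has no replicate and peaks are not replicates of a condition.

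**Figure D3:**
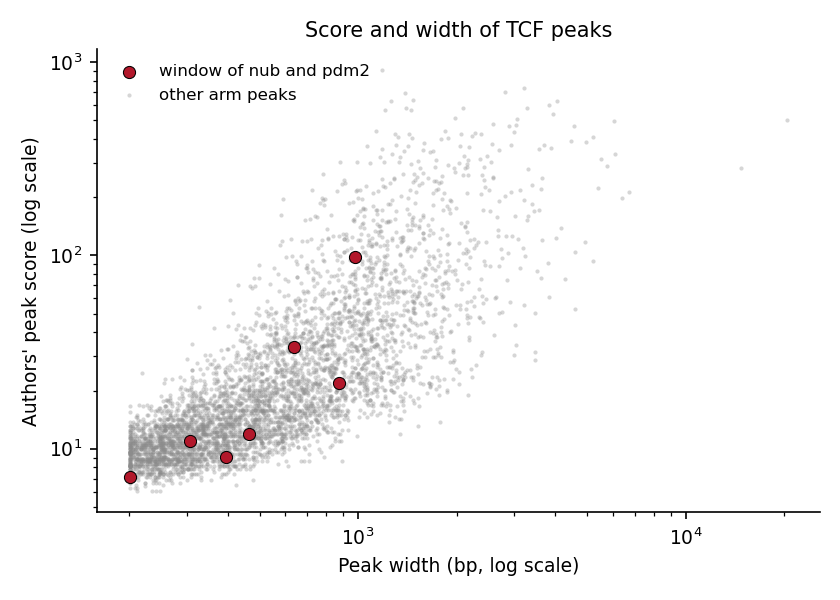
Authors' peak score against peak width (bp), both on log scales, for the 7 peaks of the nub and pdm2 window (red) and the other 4537 arm peaks (grey). The members lie within the cloud of the list, from the narrowest width of 201 bp at a score of 7.14 to 980 bp at 97.66.

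The 7 peaks of the window give 58.3 per Mb (95% exact Poisson interval 23.5 to 120), against 42.4 per Mb (39.8 to 45.2) on the rest of 2L, and the intervals overlap. They treat peaks as independent, although peaks lie in groups, so they can be too narrow. Peaks covered 3.22% of the window and 3.24% of the rest of 2L. When the 6 arms were divided into windows of the same 120 kb, the other windows held a median of 3 peaks (interquartile range 1 to 7), and those on 2L a median of 4 (1 to 8), so the count of 7 lay at the upper quartile over all arms and within the middle range on 2L. At least 7 peaks were found in 26.3% of the 979 other windows, and 722 of them held fewer. The strongest score of the nub and pdm2 window, 97.66, was exceeded in 268 of the 803 other windows that held a peak. The median of the strongest score in those windows was 56.9. Their median coverage was 2.20%, and 286 of them had a higher coverage than the nub and pdm2 window. The windows were not matched for their number of peaks, and a window with more peaks has more chances of a high score.

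**Figure D4:**
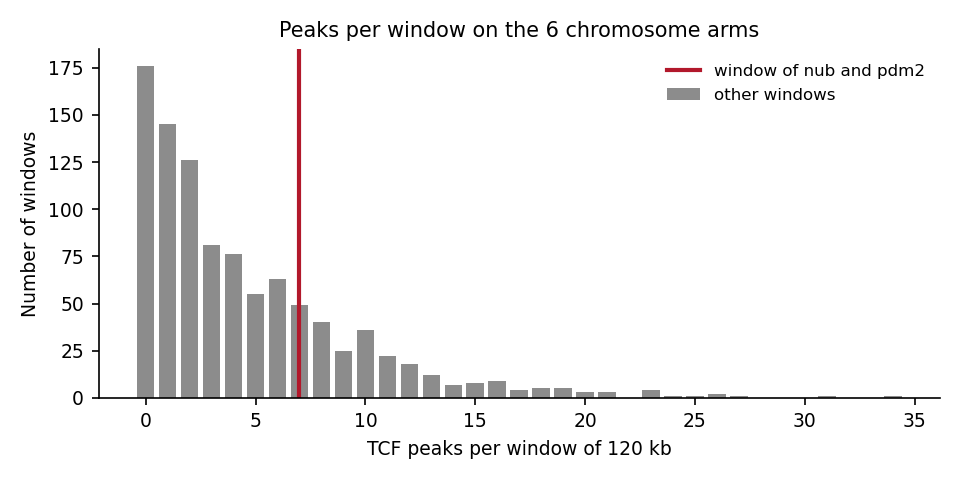
Number of windows of 120 kb on the 6 chromosome arms (vertical axis) by the number of TCF peaks they hold, with the nub and pdm2 window as a red line at 7 peaks and the other 979 windows as grey bars. Most windows hold fewer peaks, 176 hold none, and the tail of the bars reaches 34 peaks.

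Long stretches without a peak lay on both sides of the members. The stretch before the first member, from 12545528 to 12615832, held no peak over 70.3 kb, in part inside the window, and that after the last member, from 12683148 to 12840573, held none over 157 kb. On 2L these gaps ranked 93 and 26 in length among 966 gaps between neighbouring peaks, whose median was 4.90 kb. The gap inside the window, from 12623646 to 12663133, ranked 156. The 7 members were therefore the only deposited peaks in the 295 kb between their flanking peaks. The flanking peak on the left, at 12545282 to 12545527, scored 8.60, rank 4133 among the arm peaks. That on the right, at 12840574 to 12840774, scored 15.54, rank 2381 and close to the arm median.

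The edges of the window cut through no group of peaks. The nearest member lay 36.3 kb inside the left edge and 17.3 kb inside the right edge, by midpoint. The nearest peaks outside were 34.6 kb from the left edge and 141 kb from the right edge. The window of 120 kb that follows held 0 peaks, and the one that precedes held 9, which covered 3.55% of it, with a median score of 16.6 and a highest score of 37.9. The window of this tiling with the most peaks on 2L, at 14380000 to 14499999, had 34 peaks, a coverage of 37.1% and a highest score of 410.65.

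Peaks with at most 5000 bp between them were joined into groups to describe the arrangement. The window then held 3 groups, with 4 peaks, 1 peak and 2 peaks in order along the arm. Another peak midpoint lay within 5000 bp for 6 of the 7 members (85.7%), against a background of 65.8% of the 4544 arm peaks. The exception was the single peak at 12663134 to 12663440.

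The set of 4 peaks spanned 7.81 kb, of which peaks covered 31.7%. The arms held 110 groups of 4 peaks, this one included, with a median span of 6.58 kb and a median best score of 47.8. Of these 110 groups, 26 had a higher best score than this set and 41 had a longer span. Its strongest peak stood at one end of the set, as in 57 of the 110 groups (51.8%).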

How the data were processed

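TCF ChIP-seq of embryos labelled 0 to 8 h gave 1 peak list for 2 ChIP and 2 input libraries. Per the file headers, coordinates are on FlyBase release 5 and the feature source is MACS. The submitters' processing notes name MACS2, BWA and CASAVA (1.7.0.2 and 1.7.0.3) and the build BDGP5, but no role for any. Threshold, read filters and pooling of replicates were not given in the sources used here. A lenient or strict threshold changes how many weak peaks are listed. Each peak has 1 score deposited by the authors, whose -log10 scale was inferred from its values. Expected pileups from 1 to 400 were searched, and in 3 simulated lists the fit came within 0.000567% of the true value. In those lists every score was drawn on a step, and the true values were among those searched. The fit to the deposited scores can therefore be less exact. The simulated lists check the fit and not the reading of the scale.

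The members, window and measures were chosen with earlier results of these data known. All 7 members are named. Each arm was taken to end with its last peak. Windows of 120 kb were tiled so that the nub and pdm2 window was one of them. Medians, counts and ranks are descriptions, and no test over samples was possible. Motifs, promoters and protein sequences of nub and pdm2 were not analysed here. Alternatives changed membership, edges, score limit, merging, tiling, grouping distance and score tolerance. Values were computed with pandas 2.3.3, SciPy 1.17.1 and NumPy 2.4.6 under Python 3.11.15, and drawn with matplotlib 3.10.9.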

Additional observations from a re-analysis of the deposited data

How the results depend on the processing

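The count of 7 peaks, with their median score, width and gap, was identical with membership by overlap or whole peaks. The same held with edges moved 10 kb outward or inward, and with peaks closer than 200 bp merged. These settings could not change the members, since no peak lay within 10 kb of an edge and the smallest gap between members was 482 bp. Coverage was taken over 120 kb in every setting, so it was not computed for the length of a window with moved edges. Of 45 values under alternatives, 19 differed. Among them was the share of windows with at least 7 peaks, 24.9% of 985 when the tiling was shifted by 60 kb, against 26.3%. The shifted windows included those that held members. The 50% of arm peaks with the higher score left 3 members, with a median score of 33.38, a median width of 876 bp, a covered share of 2.08% and a median gap of 32411 bp. The upper 25% left 2 members, with 65.5, 808.5 bp, 1.35% and 6196 bp for the same measures. These follow from keeping fewer peaks. Merging peaks closer than 1000 bp left 6 peaks, with 16.4, 635 bp, 3.62% and 3575 bp. On 2L alone, 32.1% of the other windows held at least 7 peaks. With gaps of at most 2000 bp the members formed 5 groups. With scores matched within 0.005, 5 members had a fold, with a median of 1.92. No paired analysis was possible because replicates have no values of their own in the list, and none could be left out. With the depth unknown, stretches without a peak cannot be read as free of TCF.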
